A study of Homo sapiens with 9 samples.

Results

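The comparison described here sets 3 arrays of cells carrying RAI2 directly against 3 arrays of cells carrying RAI2-4A, a form of the same protein, so that it uses 6 of the 9 arrays of the study. The members were taken from the sample labels, RAI2 replicates 1 to 3 and RAI2-4A replicates 1 to 3. The remaining 3 arrays are of cells that received the vector, labelled control, and they are given as the background level of each gene. All 9 samples are MDA-MB231, an established human breast cancer cell line of mesenchymal appearance that is known to lack hormone receptors. Retrovirus from φNX-ampho packaging cells carried the inserts, and selection lasted 4 days in medium with puromycin at 2 µg/ml, so every group carries a retroviral insert and was exposed to the drug. Illumina bead arrays were hybridised with biotin-labelled cRNA, for which 500 ng of total RNA was the input. The labels do not say what 4A stands for, nor whether the 3 replicates of a group came from separate cultures or separate transductions, and so the spread behind the p-values is that of these samples alone and may be technical.

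RAI2 (retinoic acid-induced 2) is a nuclear protein known to bind the CtBP proteins, corepressors that carry no DNA-binding domain and are brought to promoters by zinc finger repressors such as ZEB1. In epithelial and breast cancer cells CtBP complexes are known for holding down cell adhesion and growth inhibitor genes. The question that the design allows is which transcripts differ between cells that express one form or the other.

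Values are probe intensities as deposited, in arbitrary units on a linear scale. Folds, bounds and log2 differences are on the background-corrected scale of the fit, and so they differ from ratios of the intensities. The 6 arrays had 20029 to 22677 probes above background, or 42.3% to 47.9% of the probes on the array, where background is set per array at an intensity of 99.8 to 104. Correlations of log2 values between the 6 arrays lay between 0.986 and 0.994. The array farthest from its group was replicate 1 for vector and replicate 2 for both RAI2 and RAI2-4A, with SDs of the deviations from the group means of 0.243, 0.135 and 0.171 on the log2 scale. For RAI2 this margin was small, since replicate 1 had 0.130. The number of genes past the threshold is given below without these arrays. Of the markers of the line, VIM read 10971 to 14793, CD44 6252 to 9229 and EGFR 788 to 1040 over all 9 arrays, and ESR1 and PGR were above background on 0 of 9. SPARC, which was listed as present in this line, was above background on only 1 of 9 arrays. Of genes listed as low, ERBB2 (633 to 885) and EPCAM (438 to 622) were above background on all 9 arrays. CDH1 (101 to 122), also listed as low, was above it on 8 of 9. Of the marker lists of other cells, 8 of 16 packaging cell genes were kept after the filter on dim probes, with HOXD13, LIN28B and NEFM above background on no array. Their summed intensities were 2265 to 2759 with RAI2, 2396 to 2538 with RAI2-4A and 2453 to 2721 with vector. The kept leukocyte markers (9 of 18, with PTPRC, CD3D, CD3E, CD4, LYZ, TYROBP and FCER1G above background nowhere) summed to 2952 to 3101 with RAI2, 3096 to 3334 with RAI2-4A and 2620 to 2846 with vector. The kept fibroblast and endothelial markers (8 of 17, with CDH5, CLDN5, THY1, TIE1 and VWF above background nowhere) summed to 1764 to 1841, 1653 to 1792 and 1887 to 2094.

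The RAI2 transcript checks the labels of vector against those of the forms, and not which form an array carries. Its probe read 632, 603 and 559 on the RAI2 arrays, 1063, 955 and 1158 on the RAI2-4A arrays, and 88.3, 86.3 and 95.8 on the vector arrays. Vector cells were not above background, and the groups did not overlap. The mean intensity was 598 ± 36.8 (SD, n = 3) with RAI2 and 1059 ± 101 (SD, n = 3) with RAI2-4A, a 1.80-fold difference (log2 RAI2 minus RAI2-4A -0.85, SE 0.11, adjusted p = 0.00279, limma). The probe does not distinguish the forms. RAI2-4A cells therefore carried more of the transcript, and in every result below the form of the protein and the level of its transcript cannot be told apart.

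Across the genome the 2 forms separated by a small set of genes. Of 12437 genes tested, 47 passed an adjusted p of 0.05 (limma, Benjamini-Hochberg over all genes), which is 0.378% of those tested. Of these, 24 were higher in RAI2 (0.193% of genes tested) and 23 lower (0.185%). The 6 arrays did not overlap for any of the 47, while 1407 of all genes tested (11.3%) showed no overlap. The difference was at least 2-fold for 14 genes, 8 of them higher and 6 lower in RAI2. At an unadjusted p of 0.05 in the same fit, 600 genes (4.82%) passed. This is near the share of 0.05 that such a cut lets through where no gene differs, so it is no evidence of a wider separation. The median difference over all genes was 0.00 on the log2 scale, with an SD of 0.149. Same-numbered arrays of the 2 forms deviated together, but for replicates 1 and 2 not with the same-numbered vector array. The labels state no pairing. With the replicate number as a block over the 6 arrays 98 genes passed (58 higher, 40 lower in RAI2), among them all 47. Over the same 6 arrays without a block 69 passed, so part of the rise goes with leaving out the vector arrays. A block over all 9 arrays gave 38, of which 37 were among the 47. Where no other block is named below, the replicate block is the one over the 6 arrays. That pairing was read from these same arrays. The count of 47 depended on single arrays. It was 77 without vector replicate 1, 30 without RAI2 replicate 1 and 31 without RAI2 replicate 3, and 56 without the 3 arrays farthest from their groups. The same fit called 52 genes between RAI2 and vector (0.418% of genes tested) and 11 between RAI2-4A and vector (0.0884%), and these comparisons share arrays with the one described here.

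**Figure D1:**
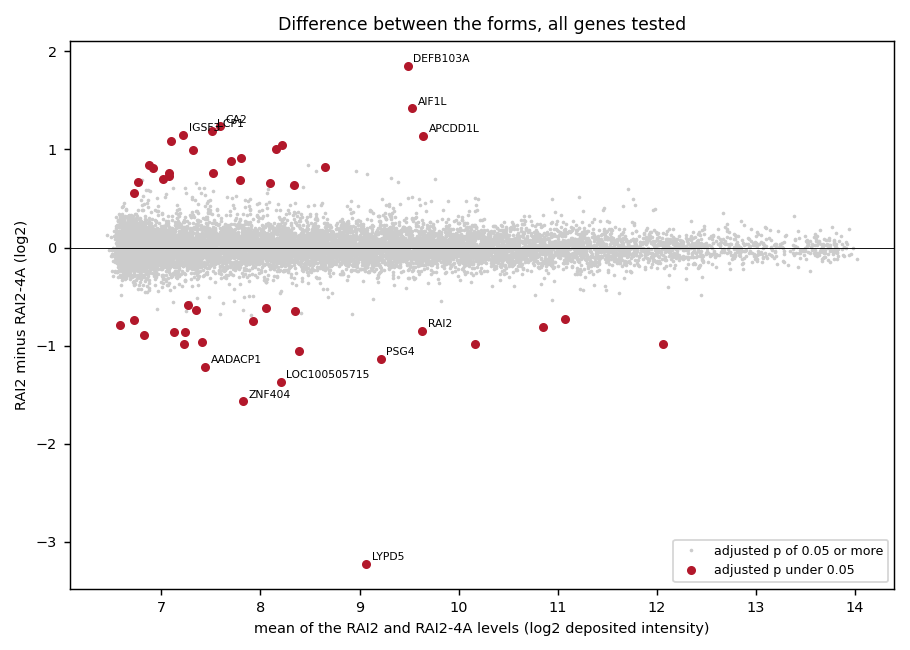
The difference between RAI2 and RAI2-4A (log2, vertical axis) of every gene tested against its mean log2 intensity (horizontal axis), with genes past the adjusted p of 0.05 marked. The 47 marked genes lie on both sides of 0 and run from -3.22 for LYPD5 to 1.85 for DEFB103A.

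Sequences of the regions upstream of 5 genes that differed, and of a microRNA whose host locus differed, are shown here so that the results can be read beside them. The upstream windows hold 250 bases before the annotated start on GRCh38.p14, from RefSeq, and are written 5′ to 3′ on the gene's own strand. LYPD5 (chr19:43802448-43802697, minus strand) and ZNF404 (chr19:43883965-43884214, minus strand) have the largest differences among genes higher in RAI2-4A, AADAC (chr3:151813866-151814115, plus strand) is higher in RAI2-4A too, and LCP1 (chr13:46182178-46182427, minus strand) and KCNK1 (chr1:233613856-233614105, plus strand) are higher in RAI2. Capitals mark the E-box CACCTG or its reverse complement CAGGTG, a motif that ZEB1 is known to bind.
LYPD5: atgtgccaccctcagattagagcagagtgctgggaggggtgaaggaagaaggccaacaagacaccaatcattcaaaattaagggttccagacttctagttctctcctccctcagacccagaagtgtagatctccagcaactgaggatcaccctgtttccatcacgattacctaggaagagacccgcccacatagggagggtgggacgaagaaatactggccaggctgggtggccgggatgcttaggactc
ZNF404: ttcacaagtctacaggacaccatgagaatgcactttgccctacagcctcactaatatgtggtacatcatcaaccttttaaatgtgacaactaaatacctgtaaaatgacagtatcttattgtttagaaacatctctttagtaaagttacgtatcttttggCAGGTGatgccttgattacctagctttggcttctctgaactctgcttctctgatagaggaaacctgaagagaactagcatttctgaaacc
AADAC: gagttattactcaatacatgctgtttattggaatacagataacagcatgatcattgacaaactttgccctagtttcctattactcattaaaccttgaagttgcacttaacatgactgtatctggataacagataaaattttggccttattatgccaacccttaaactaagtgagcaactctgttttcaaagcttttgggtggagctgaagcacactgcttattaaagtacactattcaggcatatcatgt
LCP1: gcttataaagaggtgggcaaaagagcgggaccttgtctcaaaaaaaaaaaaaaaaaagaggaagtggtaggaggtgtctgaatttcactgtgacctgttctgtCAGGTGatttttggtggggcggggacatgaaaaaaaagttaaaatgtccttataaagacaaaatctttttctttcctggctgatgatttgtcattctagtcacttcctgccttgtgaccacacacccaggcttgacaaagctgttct
KCNK1: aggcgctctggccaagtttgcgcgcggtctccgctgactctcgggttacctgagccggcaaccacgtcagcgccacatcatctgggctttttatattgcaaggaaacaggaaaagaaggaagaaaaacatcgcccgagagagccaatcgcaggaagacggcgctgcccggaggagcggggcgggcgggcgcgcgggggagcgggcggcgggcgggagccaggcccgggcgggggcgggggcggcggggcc
The motif, read on both strands, occurred once in the ZNF404 window and once in the LCP1 window, and it was not in the other 3. Of 34943 such windows of all genes in the RefSeq table, 17.5% held it. Of the 47 called genes 35 had a window, and the motif was in 4 of 17 of those higher in RAI2 and in 3 of 18 of those lower. A match describes the letters of the window only. The mature microRNA let-7e-5p (chr19:51692793-51692814, plus strand, GRCh38.p14, RefSeq), with the seed, bases 2 to 8, in capitals, is
hsa-let-7e-5p: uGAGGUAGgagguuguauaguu
It matters here because a probe at its locus was among the genes that differed.

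The largest separation between the forms was at 1 stretch of chromosome 19, where LYPD5, ZNF404 and LOC100505715 were all higher in RAI2-4A. LYPD5 encodes a GPI-anchored protein of the LY6/PLAUR family. Its probe read 168, 177 and 201 on the RAI2 arrays, 1139, 2370 and 1251 on the RAI2-4A arrays, and 301, 190 and 267 on the vector arrays. The RAI2-4A arrays stood far above all the others. The level was 9.34-fold higher in RAI2-4A than in RAI2 (log2 -3.22, SE 0.25, adjusted p = 5.30e-05, limma), and a second bright probe gave -3.04. ZNF404, a zinc finger gene, read 152, 133 and 135 with RAI2, 365, 405 and 338 with RAI2-4A and 134, 149 and 165 with vector, a 2.97-fold difference (log2 -1.57, SE 0.12, adjusted p = 5.30e-05, limma). LOC100505715 read 183, 191 and 196 with RAI2, 409, 510 and 451 with RAI2-4A and 184, 251 and 241 with vector (2.58-fold, log2 -1.37, adjusted p = 0.000416, limma). In RefSeq's order these genes lie as LYPD5, ZNF283, ZNF404, LOC100505715. ZNF283, between them, had a difference of -0.26 (SE 0.13) and did not pass. Of 16 measured genes in this stretch 3 passed, and the other 13 had differences of -0.26 to 0.19. Of all genes tested 0.378% passed. The stretch was drawn around LYPD5 and ZNF404, which both passed, so its count is no evidence about the stretch. Measured neighbours of LYPD5, ZNF404 and LOC100505715 include KCNN4 at -0.00 and ZNF45 at -0.15.

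**Figure D2:**
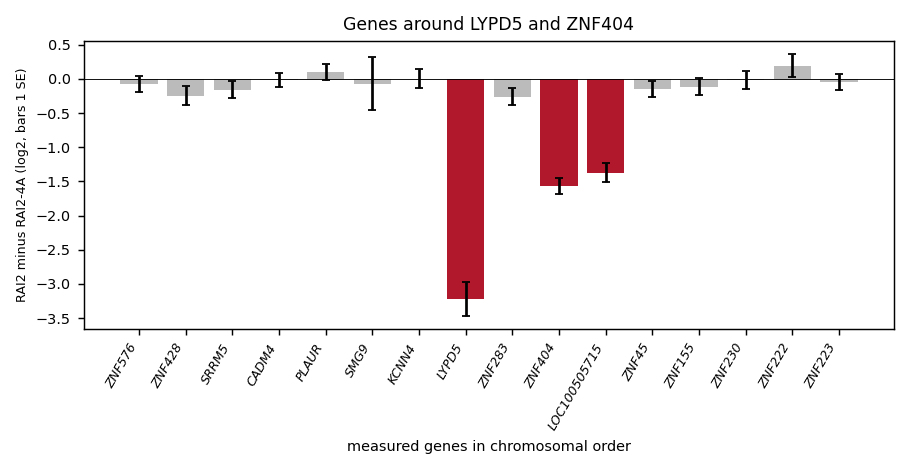
Difference between RAI2 and RAI2-4A (log2, vertical axis, columns with bars of 1 SE, red where past the threshold) of the measured genes around LYPD5 and ZNF404, in RefSeq's order along the horizontal axis. LYPD5, ZNF404 and LOC100505715 lie below -1 and the 13 others lie between -0.26 and 0.19.

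A pair of neighbouring genes on chromosome 3 was likewise higher in RAI2-4A. AADAC encodes an esterase of the endoplasmic reticulum, and AADACP1 is its pseudogene. AADAC read 111, 99.6 and 128 with RAI2, 196, 212 and 189 with RAI2-4A and 120, 124 and 147 with vector (1.97-fold, log2 -0.98, adjusted p = 0.00321, limma), with 2 of 3 RAI2 arrays above background. AADACP1 read 132, 104 and 125 with RAI2, 220, 298 and 234 with RAI2-4A and 126, 147 and 174 with vector (log2 -1.22, SE 0.17, adjusted p = 0.00321, limma), and a second probe gave -1.08. The forms did not overlap for either gene, and since the 2 are close copies the array may not separate their transcripts. With the background taken at the mode of each array their differences grew to -1.73 and -1.94.

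Among pregnancy-specific glycoproteins, immunoglobulin-family proteins known as secreted products of the placenta, PSG4 and PSG6 were higher in RAI2-4A. With the probes of a gene averaged, PSG4 did not pass (-0.61, adjusted p = 0.0574, limma). On its brightest probe PSG4 read 491, 360 and 377 with RAI2, 926, 847 and 818 with RAI2-4A and 600, 668 and 736 with vector (2.19-fold, log2 -1.13, adjusted p = 0.00122, limma), and it was past the threshold for RAI2 against vector too (log2 -0.75, adjusted p = 0.028). PSG6 read 248, 226 and 244 with RAI2, 533, 452 and 433 with RAI2-4A and 365, 344 and 428 with vector (2.07-fold, log2 -1.05, adjusted p = 0.00109, limma). Vector cells lay between the forms for both genes, and the PSG genes are near-identical copies whose probes may share signal. Of the 9 PSG and CEACAM genes measured, 2 were lower and 1 was higher in RAI2, and the median difference was -0.55 against 0.00 over all genes. The share past the threshold over all genes tested was 0.378%. With the replicate number as a block, which called 0.788% of all genes tested, 5 of the 9 were lower. PSG2 (-0.55, adjusted p = 0.0309), PSG3 (-0.56, adjusted p = 0.0158) and PSG7 (-0.63, adjusted p = 0.0106, limma) then joined PSG4 and PSG6. CEACAM1, an adhesion protein of the same family, was higher in RAI2 (log2 0.55, adjusted p = 0.0352, limma), was not above background on any RAI2-4A array, and was at least 1.25-fold higher. CEACAM1 did not pass without vector replicate 2 or 3, RAI2 replicate 1 or 3, or any RAI2-4A array (adjusted p up to 0.228), nor with a replicate block over all 9 arrays (0.0933), uncorrected background (0.0829), probes averaged (0.37, adjusted p = 0.472) or each probe tested alone (0.0626).

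Of 15 cancer-testis antigens measured, proteins normally made in the germ line and found in many tumours, 4 were lower and 1 was higher in RAI2, and the median difference was -0.38. Those lower were PAGE5, MAGEA12, PRAMEF18 and SSX1, and SPANXA1 was the one higher. Of all genes tested 0.378% passed. SSX1 did not pass under 10 of 25 other settings, 7 of them the removal of a single array (adjusted p up to 0.224) and 1 the averaging of probes (0.65). With the replicate number as a block, which called 0.788% of all genes tested, 6 were lower and 1 higher, MAGEA6 (-0.56, adjusted p = 0.0158) and FAM133A (-0.46, adjusted p = 0.0431, limma) joining the others. PAGE5 read 882, 877 and 709 with RAI2, 1542, 1897 and 1378 with RAI2-4A and 1250, 952 and 876 with vector (log2 -0.98, SE 0.16, adjusted p = 0.0126, limma), and without RAI2 replicate 3 or RAI2-4A replicate 1 or 2 its adjusted p was up to 0.110, and with background at the mode 0.0659. MAGEA12 read 118, 128 and 105 with RAI2, 193, 203 and 185 with RAI2-4A and 170, 178 and 210 with vector (log2 -0.86, adjusted p = 0.00556, limma). The forms did not overlap for either gene. The vector arrays overlapped the RAI2 arrays for PAGE5 and the RAI2-4A arrays for MAGEA12. PRAMEF18 was 126, 133 and 127 with RAI2-4A and not above background in the other groups, at least 1.33-fold higher in RAI2-4A (log2 -0.74, adjusted p = 0.00355, limma). SPANXA1 read 406, 376 and 404 with RAI2 and 235, 259 and 296 with RAI2-4A (log2 0.64, adjusted p = 0.0352, limma), with 270, 289 and 243 with vector. It did not pass without any one RAI2 array or RAI2-4A replicate 1 or 2 (adjusted p up to 0.206), without the 3 arrays farthest from their groups (0.0807), with a block over all 9 arrays (0.0959), with background at the mode (0.0847), or by either other use of the probes (0.079 and 0.0967, limma). Members of the MAGEA, PRAME and SPANX families are near-identical copies, so the signal cannot be assigned to 1 gene with certainty. CTAGE1, another testis-expressed gene, was lower in RAI2 (log2 -0.96, adjusted p = 0.00602, limma), and its second probe read 0.20 with 3 arrays above background. When the probes of a gene were averaged, MAGEA12 (-0.47, adjusted p = 0.26) and CTAGE1 (-0.38, adjusted p = 0.222) did not pass.

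Other genes higher in RAI2-4A had known roles in signalling, matrix and metabolism. FST encodes follistatin, which binds and neutralises activin, and read 2817, 2543 and 3870 with RAI2, 5535, 6862 and 5603 with RAI2-4A and 4118, 6042 and 6654 with vector (1.98-fold, log2 -0.99, SE 0.19, adjusted p = 0.0438, limma). It did not pass when any RAI2-4A array, replicate 1 or 2 of RAI2, or replicate 2 of vector was left out, up to an adjusted p of 0.242, nor with background at the mode (0.16), each probe tested alone (0.124), probes averaged (0.13) or eBayes with trend and robust (0.189). MATN2, an extracellular matrix adaptor protein, read 1353, 1250 and 1596 with RAI2, 2378, 2565 and 2357 with RAI2-4A and 1754, 2010 and 2102 with vector (log2 -0.81, adjusted p = 0.00578, limma). It did not pass with probes averaged (-0.65, adjusted p = 0.0535). MAOA, which breaks down monoamines, read 1644, 1602 and 1818 with RAI2, 2751, 2798 and 2780 with RAI2-4A and 2047, 2452 and 2528 with vector (log2 -0.73, adjusted p = 0.00716, limma), and had an adjusted p of 0.0515 without RAI2 replicate 1. CDH2, the mesenchymal cadherin, read 148, 125 and 133 with RAI2, 200, 198 and 192 with RAI2-4A and 165, 178 and 193 with vector (log2 -0.64, adjusted p = 0.021, limma), but did not pass in a fit with a replicate block over all 9 arrays (adjusted p = 0.0667) or without the 3 arrays farthest from their groups (log2 -0.57, adjusted p = 0.0807). Nor did CDH2 pass without RAI2 replicate 2 or 3 or any RAI2-4A array (adjusted p up to 0.147). TENM3, a teneurin adhesion receptor, read 222, 229 and 205 with RAI2, 305, 337 and 326 with RAI2-4A and 421, 419 and 438 with vector (log2 -0.62, adjusted p = 0.0126, limma). For TENM3 the vector cells were highest, RAI2 differing from vector by -1.05 (adjusted p = 0.0002, limma), but between the forms it did not pass without RAI2 replicate 1 or 3 or RAI2-4A replicate 2 or 3 (adjusted p up to 0.110).

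The zinc finger gene ZNF582 and the locus of let-7e belonged to the same direction. ZNF582 read 111, 110 and 105 with RAI2, 187, 192 and 160 with RAI2-4A and 121, 133 and 144 with vector (log2 -0.86, adjusted p = 0.00321, limma). The MIRLET7E probe read 86.3, 85.3 and 93.8 with RAI2, 151, 150 and 133 with RAI2-4A, and 91.3, 95.8 and 98.3 with vector, so that only the RAI2-4A arrays were above background. The difference was at least 1.53-fold (fitted log2 -0.89, SE 0.11, adjusted p = 0.00122, limma). The probe measures a transcript of the locus, and the mature miRNA shown above was not measured. Probes for MIRLET7A1 (-0.17) and MIRLET7D (0.00), from other loci of the family, gave differences that did not pass.

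In the other direction, the most separated gene was DEFB103A, which encodes beta-defensin 3, an antimicrobial peptide. It read 1284, 1096 and 1623 with RAI2, 414, 428 and 312 with RAI2-4A and 198, 188 and 218 with vector. Every RAI2 array lay above every RAI2-4A array, and these lay above every vector array. The level was 3.62-fold higher in RAI2 (log2 1.85, SE 0.16, adjusted p = 0.000118, limma), and a second probe gave 1.84. Against vector the difference was 2.86 in RAI2 (adjusted p = 8.3e-07) and 1.01 in RAI2-4A (adjusted p = 0.033, limma). The near-identical copy DEFB103B has a probe of its own, which read 138, 124 and 128 with RAI2, 104, 95.7 and 93.2 with RAI2-4A and 86.4, 96.0 and 93.9 with vector (log2 0.52, adjusted p = 0.058, limma). It passed with the replicate block (adjusted p = 0.020). How far the probes of either gene also bind the other transcript was not tested.

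Of 23 measured genes of the actin cytoskeleton, LCP1 and AIF1L were higher in RAI2 and none was lower, with a list median of 0.06. The share past the threshold over all genes tested was 0.378%. LCP1 encodes L-plastin, an actin-bundling protein, and read 248, 239 and 294 with RAI2, 125, 136 and 120 with RAI2-4A and 126, 103 and 120 with vector (2.29-fold, log2 1.19, SE 0.13, adjusted p = 0.000726, limma). AIF1L, which binds actin, read 950, 1055 and 1592 with RAI2, 358, 525 and 491 with RAI2-4A and 781, 1091 and 1107 with vector (log2 1.42, SE 0.21, adjusted p = 0.00601, limma). LCP1 differed from vector by 1.35 in RAI2 (adjusted p = 0.000199) and by 0.16 in RAI2-4A (adjusted p = 0.994, limma), whereas for AIF1L the RAI2-4A arrays were low and the RAI2 and vector arrays overlapped. With the replicate block TAGLN, an actin-binding protein of smooth muscle, was also higher in RAI2 (0.52, adjusted p = 0.0317, limma).

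Of genes for ion transport and pH, KCNK1 and CA2 were higher in RAI2 (2 of 13 measured, none lower). The list median was 0.01, and 0.378% of all genes tested passed. CA2 is a carbonic anhydrase, and read 275, 238 and 331 with RAI2, 131, 127 and 138 with RAI2-4A and 167, 217 and 200 with vector (log2 1.24, SE 0.14, adjusted p = 0.00109, limma). KCNK1, a potassium channel, read 198, 205 and 242 with RAI2, 124, 111 and 122 with RAI2-4A and 136, 139 and 135 with vector (log2 1.00, SE 0.11, adjusted p = 0.000977, limma). Neither gene's forms overlapped, and for both genes the vector arrays lay between them.

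Receptors and surface proteins were among the other genes higher in RAI2. APCDD1L, a relative of a WNT inhibitor, read 1147, 1297 and 1047 with RAI2, 550, 427 and 668 with RAI2-4A and 435, 556 and 380 with vector (log2 1.14, SE 0.18, adjusted p = 0.00917, limma). IL7R, the interleukin 7 receptor alpha chain, read 413, 390 and 443 with RAI2, 218, 211 and 212 with RAI2-4A and 196, 225 and 280 with vector (log2 1.04, adjusted p = 0.00233, limma). In both genes only the RAI2 arrays were high. Without RAI2 replicate 1 or 2, APCDD1L did not pass (adjusted p up to 0.0639), nor with background at the mode (0.0621). LRIG1 is a receptor that restrains ERBB signalling. Its brightest probe read 382, 262 and 252 with RAI2 and 171, 161 and 168 with RAI2-4A (log2 0.91, adjusted p = 0.0136, limma). That probe was not above background on any vector array. A second kept LRIG1 probe was above background on 8 arrays, vector arrays among them. This second probe gave a log2 difference of 0.78 between the forms and a vector mean intensity of 105. On the brightest probe LRIG1 passed for both forms against vector, with adjusted p of 3e-05 for RAI2 and 0.016 for RAI2-4A. Without any single RAI2-4A array LRIG1 did not pass between the forms, with an adjusted p of up to 0.0753. IGSF3 and MPZL2, immunoglobulin-family adhesion proteins, were higher in RAI2 by 1.15 (adjusted p = 0.000688) and 1.09 (adjusted p = 0.000416, limma) on the log2 scale, with RAI2-4A near background at 102, 106 and 111 and at 97.9, 103 and 99.4. On the vector arrays IGSF3 was not above background, and MPZL2 was above it on all 3 (117, 129 and 129). With background at the mode their differences were 2.06 and 2.07, and a second, well detected MPZL2 probe gave 0.03.

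Among cell cycle, transcription and phosphatase genes, CCND2, which drives the G1 kinases, read 446, 336 and 391 with RAI2, 233, 173 and 217 with RAI2-4A and 179, 211 and 242 with vector (log2 1.00, adjusted p = 0.0117, limma). It did not pass without RAI2 replicate 1, RAI2 replicate 3 or RAI2-4A replicate 2 (adjusted p up to 0.0828), nor with background at the mode (1.27, adjusted p = 0.059). KLF13, a zinc finger transcription factor, read 285, 281 and 254 with RAI2, 150, 155 and 171 with RAI2-4A and 181, 165 and 174 with vector (log2 0.89, SE 0.11, adjusted p = 0.00123, limma). PPP2R2C, a regulatory subunit of the phosphatase PP2A, read 163, 164 and 176 with RAI2, 106, 108 and 112 with RAI2-4A and 162, 184 and 187 with vector (log2 0.76, adjusted p = 0.00321, limma). For PPP2R2C the RAI2 arrays lay with vector, and RAI2-4A differed from vector by -0.86 (adjusted p = 0.0043, limma). STEAP1, a membrane protein of the STEAP family, read 656, 482 and 448 with RAI2, 323, 290 and 301 with RAI2-4A and 317, 311 and 318 with vector (log2 0.83, adjusted p = 0.0136, limma). Its second probe gave 0.08. STEAP1 did not pass with probes averaged (0.45, adjusted p = 0.625) or without RAI2-4A replicate 2 or 3 (adjusted p up to 0.0774, limma). COLEC12, a scavenger receptor, and HSPA12A, a distant relative of the HSP70 chaperones, were above background only with RAI2 of the 2 forms, with bounds on the background-corrected scale of at least 1.59-fold for the first (fitted 1.76-fold) and at least 1.57-fold for the second (fitted 1.79-fold). On the vector arrays COLEC12 was not above background, and HSPA12A was above it on all 3 (103, 107 and 124). COLEC12 did not pass without RAI2 replicate 1 or 2 or RAI2-4A replicate 1 or 3 (adjusted p up to 0.145) or with each probe tested alone (0.065), nor HSPA12A with probes averaged (0.42, adjusted p = 0.223). Of the other 11 genes past the threshold CCNA1, TFCP2L1, ATP9A, RPS6KA2, SNCAIP and LDOC1 were higher in RAI2, and RGPD6, RTL3, MAOA, PLEKHA7 and SSX1 were lower, each by at most 1.73-fold with the main background correction. Each of the 11 was lost under 1 to 14 of up to 25 other settings, and 7 of them under 8 or more, CCNA1 under 14, TFCP2L1 under 13, PLEKHA7 under 12 and ATP9A under 11. For dim genes the size of a difference depended on the background correction. With background at the mode, LCP1 was at 1.84, CA2 at 1.84, KCNK1 at 1.67, HSPA12A at 1.72, CEACAM1 at 1.16, PPP2R2C at 1.46, SNCAIP at 1.40, RPS6KA2 at 1.38, TFCP2L1 at 1.32 and LDOC1 at 1.14, and COLEC12 was 3.12-fold higher in RAI2. ZNF404 was then at -2.17, MIRLET7E at -1.74, ZNF582 at -1.59, CTAGE1 at -1.52, MAGEA12 at -1.51, PRAMEF18 at -1.42, RGPD6 at -1.23, CDH2 at -1.02 and SSX1 at -0.97.

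**Figure D3:**
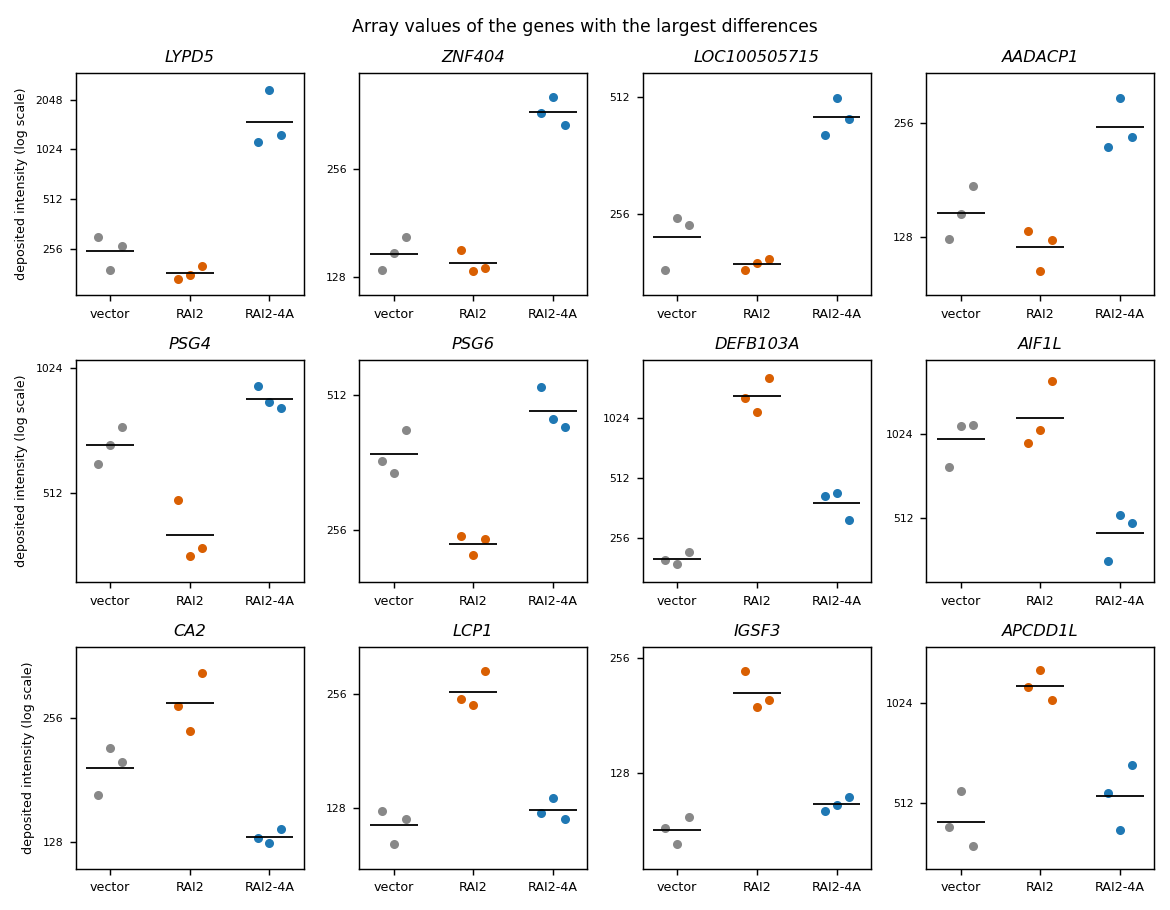
Deposited intensity (vertical axis, log scale) of the 6 genes with the largest difference in each direction, RAI2 itself left out, with a point per array, a line at the geometric mean, and vector in grey, RAI2 in orange and RAI2-4A in blue. LYPD5 reads 1139 to 2370 with RAI2-4A and 168 to 201 with RAI2, and in every panel the points of the 2 forms do not overlap.

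The vector arrays give the level of each gene with neither form. For 37 of the 47 genes the vector mean lay between the means of the forms on the log2 scale. This count includes genes where vector lay close to a form, such as CCND2 and SPANXA1, with RAI2-4A minus vector at -0.03 for both. The share over all genes is not given. The 47 genes were picked for a gap between the forms, and a wide gap holds the mean of another group more readily. The count therefore does not show that the forms moved in opposite directions from vector. Of the genes above, LYPD5 differed from vector by 2.72 in RAI2-4A (adjusted p = 0.0002, limma) and by -0.51 in RAI2 (adjusted p = 0.88). ZNF404 differed by 1.46 (adjusted p = 0.00013, limma) and -0.11. The comparisons share the vector arrays, so the 2 values of a gene are not independent of each other.

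**Figure D4:**
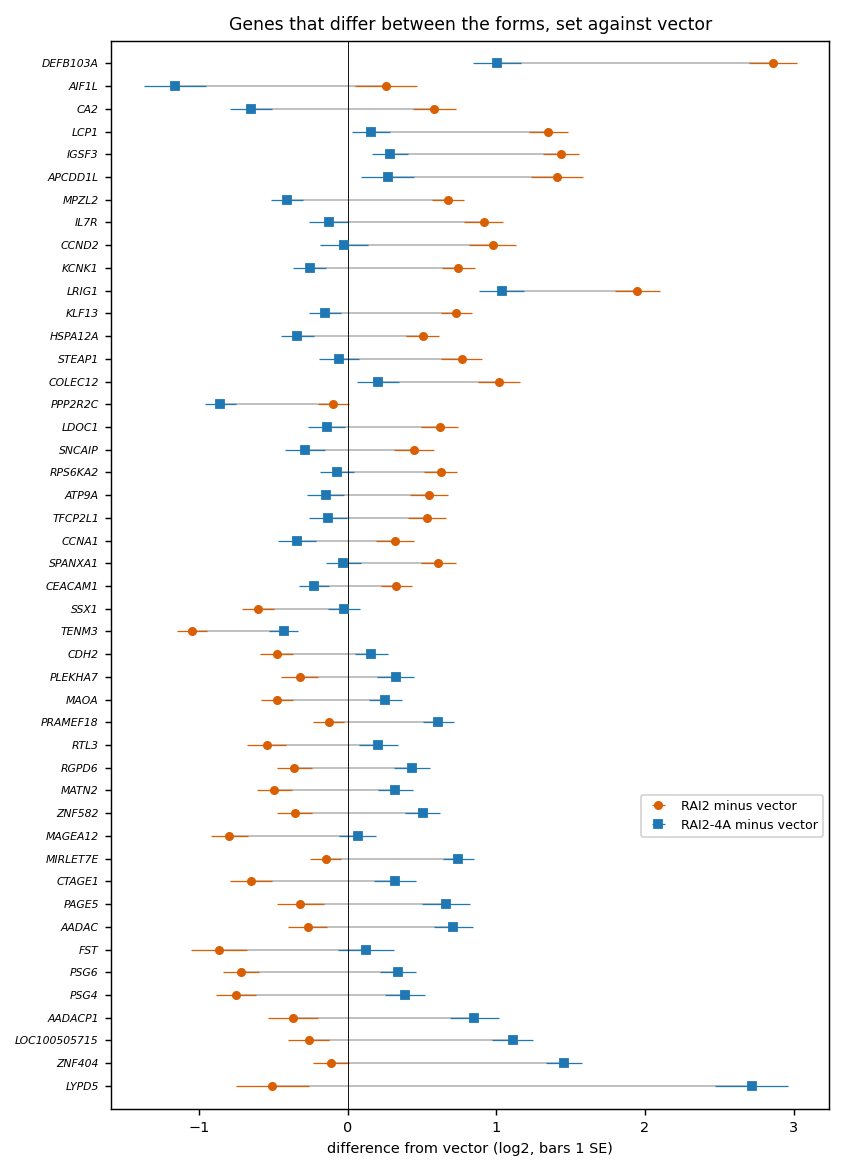
Each row is a gene past the threshold between the forms, and the horizontal axis gives its difference from vector (log2, bars 1 SE) for RAI2 (orange circles) and RAI2-4A (blue squares), which use the same vector arrays. DEFB103A lies at 2.86 and 1.01 and LYPD5 at -0.51 and 2.72.

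Genes were also grouped into 54 lists by function. Of their 1216 genes 932 were measured, and 26 (2.79%) were past the threshold, spread over 18 lists, against 0.378% of all genes tested. Since lists were written with earlier results known, this share is no evidence about them. With the replicate block 43 (4.61%) passed, in 28 lists, against 0.788% of all genes. The median difference of a list ran from -0.55 to 0.23, and 11 lists lay more than 0.1 from the median of all genes. In 36 lists no gene passed, and at the share over all genes a list of this size would mostly hold none. Their medians ran from -0.05 to 0.23, and 6 of these lay over 0.1 from that of all genes. These counts describe the lists and no test was made of any list. Beside those described above, 1 gene passed in each of the lists for ERBB signalling (LRIG1, of 15), cytokine receptors (IL7R, of 21), CDK inhibitors and D cyclins (CCND2, of 22), tetraspanins and IGSF3 (IGSF3, of 15, with PTGFRN passing too under the replicate block, adjusted p = 0.020), PP2A subunits (PPP2R2C, of 17), activin and TGF-beta signalling (FST, of 24), lipid metabolism (AADAC, of 25), teneurins (TENM3, of 5), the LY6 family (LYPD5, of 8) and antimicrobial peptides (DEFB103A, of 5). The WNT and Notch list (23) had APCDD1L higher and TENM3 lower in RAI2.

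Genes of the CtBP complex (18 measured, none past the threshold, median -0.01) and a list of its target genes (19, none, 0.14) held no called gene. CTBP1 read 1208, 1355 and 1355 with RAI2 and 1345, 1526 and 1571 with RAI2-4A (log2 -0.18, SE 0.11, adjusted p = 1.00, limma), the ranges overlapping. Of the targets, IGFBP3, which binds insulin-like growth factors, read 1020, 879 and 852 with RAI2, 726, 590 and 654 with RAI2-4A (log2 0.50, adjusted p = 0.205, limma), and with the replicate block it passed (adjusted p = 0.0317). Retinoid genes (14, none, 0.02) included CRABP2 at 0.40 and TGM2 at 0.40. In luminal genes (11, none, -0.04) GATA3 was -0.38 and SPDEF -0.39, and in basal genes (10, none, 0.23) NT5E was 0.50 and ITGB4 0.46.

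Mesenchymal genes (12 measured) had 1 lower, CDH2, and collagen and matrix genes (25) had 1 lower, MATN2, with medians of 0.15 and 0.01. Junction genes (14, median 0.08), integrins (21, 0.08) and proteases (20, 0.20) had none, nor did hyaluronan genes (10, 0.06), where CEMIP was 0.75, and metastasis genes (21, 0.16). With the replicate block ITGB4, an integrin of hemidesmosomes, passed among integrins and basal genes (0.46, adjusted p = 0.0429), and SERPINE2, a protease inhibitor, among proteases (0.47, adjusted p = 0.0336, limma). TNC, tenascin C, a matrix glycoprotein, read 529, 434 and 437 with RAI2, 320, 205 and 299 with RAI2-4A and 257, 283 and 308 with vector (log2 0.84, adjusted p = 0.0544, limma), with no overlap between forms. With the replicate block it passed (adjusted p = 0.0073).

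Interferon genes (36 measured, none past the threshold) had a median of 0.17, with OASL at 0.78 (adjusted p = 0.172, limma) and IFIT1 at 0.52 (adjusted p = 0.122, limma). Both passed with the replicate block, at adjusted p of 0.00585 and 0.0449. IFIT1 read 2860, 2872 and 2763 with RAI2, 2111, 1740 and 2137 with RAI2-4A and 2052, 2515 and 2166 with vector. Genes of the NF-kB response (27, none, 0.12), MHC (21, none, 0.01) and complement (12, none, -0.02) did not pass. Among complement regulators CD55 was -0.49 and C4BPB -0.53, passing only with the block (adjusted p = 0.0429 and 0.0188, limma).

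Many lists for growth, stress and energy metabolism held no gene past the threshold. S-phase entry genes (25, none past, -0.01), mitotic genes (31, none, 0.04), ribosomal proteins (26, none, 0.03), oxidative phosphorylation (28, none, 0.02), hypoxia (30, none, 0.02), the unfolded protein response (27, none, 0.01), heat shock (17, none, -0.04) and cholesterol synthesis (20, none, -0.03) had medians near that of all genes. None passed either for ERK feedback (23, -0.02), AKT and IGF signalling (23, 0.03), YAP targets (26, 0.03), apoptosis (22, 0.03), histones (16, -0.05), ribosome biogenesis (24, 0.04), glucocorticoid response (15, 0.09), kynurenine and amino acid metabolism (15, 0.05), and endosomes (27, 0.02). The named gene with the larger difference among NRF2 targets (20, none, 0.09) was AKR1C3 at 0.69. Housekeeping genes (18, none) had a median of 0.00. Fibroblast and endothelial genes (8, none) had a median of -0.02 and ran from -0.51 to 0.24. The lowest was PDGFRB (adjusted p = 0.0539, limma, and 0.0313 with the replicate block). Leukocyte genes (9, none) had a median of 0.02 and ran from -0.30 to 0.53. The highest was CD14 (adjusted p = 0.222, limma). What part these cell marker levels have in the results above was not tested.

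**Figure D5:**
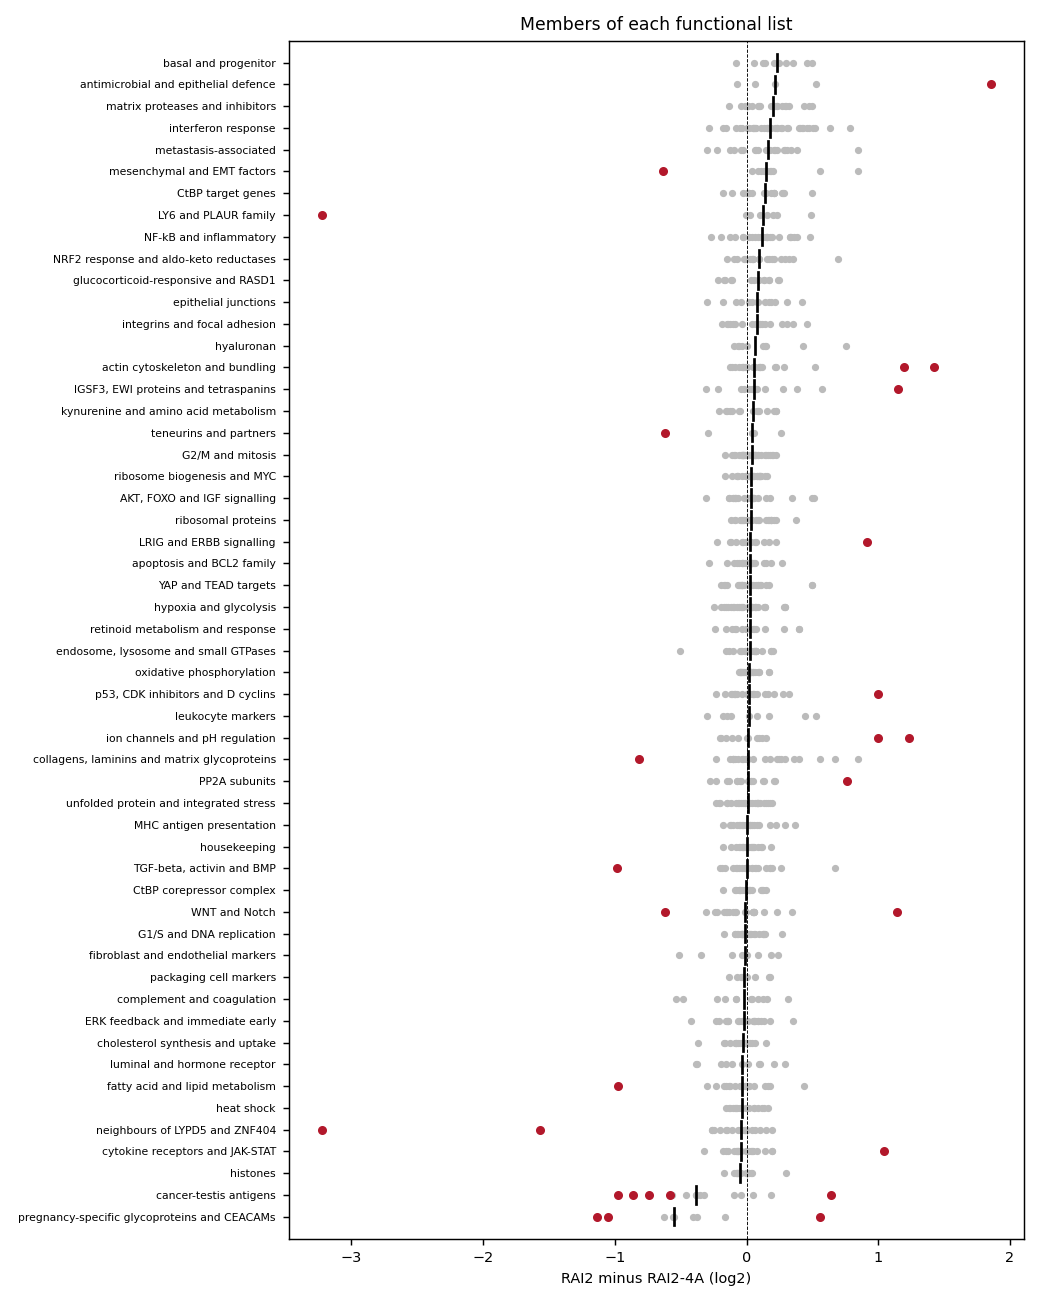
Difference between RAI2 and RAI2-4A (log2, horizontal axis) of each measured member of the lists with at least 3 members, a point per gene, red where past the threshold, with a black mark at the list's median and a dashed line at the median of all genes. The pregnancy-specific glycoproteins and CEACAMs have the lowest median, -0.55, and basal genes the highest, 0.23.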

How the data were processed

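RNA of 9 MDA-MB231 samples, 3 each of vector, RAI2 and RAI2-4A, was measured on Illumina bead arrays. The deposited table gives a linear intensity for each of 47323 probes. BeadStudio and limma, without versions, are the tools in the submitters' processing notes. Array medians were 98.5 to 99.5, so the values were taken as already normalized, although the method is not given in the sources used here. The names of another 18 columns of values could not be matched to samples, and these were left unused. Raw signals with neqc and detection p had been planned, and the steps below replace them.

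From these intensities, 3 probes with a missing value were dropped, background was corrected with normexp (offset 50, saddle-point estimate) before taking log2. A probe was above background where it exceeded the mode of its array's log2 values by 1.645 SD, and was kept when above on at least 3 of 9 arrays (22399 probes). A single gene symbol was given for 30113 probes, several for 8 and none here for 17202. Through Entrez IDs 30074 matched the RefSeq gene table of GRCh38.p14. The brightest kept probe stood for its gene. A linear model over all 9 arrays (limma 3.58.1, R 4.3.3, 6 residual degrees of freedom) gave two-sided p-values, Benjamini-Hochberg adjusted over 12437 genes. A fold "at least" is set against the background threshold where a group was not above background, and like every fold it is on the background-corrected scale. The number of arrays limits precision.

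The gene lists and the members were chosen with earlier results of these data known. Named genes are RAI2, the 15 with the largest difference in each direction among genes past the threshold that did not overlap, up to 4 called members per list or, where none passed, the 2 with the smallest p, and the neighbours of LYPD5 and ZNF404. The other 11 genes past the threshold, DEFB103B, PTGFRN, PSG2, PSG3, PSG7, MAGEA6, FAM133A, TAGLN, MIRLET7A1 and MIRLET7D were named outside that rule, after their values were seen. The deviations of same-numbered arrays of RAI2 and RAI2-4A from their group means correlated at 0.444, 0.437 and 0.231. With the same-numbered vector arrays the values were -0.249, -0.287 and 0.197 for RAI2 and -0.295, -0.434 and 0.185 for RAI2-4A. Replicate 2 of RAI2 and of RAI2-4A correlated with vector replicate 1 at 0.483 and 0.538. The pairing was read from the data and is not stated in the labels. The scripts were tested on simulated data. Alternatives were other background corrections, normalizations, filters, probe summaries, array weights, replicate blocks and the removal of single arrays.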

Additional observations from a re-analysis of the deposited data

How the results depend on the processing

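Of the 47 genes past the threshold, none changed sign under any alternative, 25 remained whichever single array was left out, and 20 passed under every setting, 10 in each direction. Leaving out single arrays gave 30 to 77 genes in all, 13 to 41 higher and 16 to 36 lower in RAI2. With the replicate number as a block over the 6 arrays 98 genes passed (58 higher, 40 lower), and with a block over all 9 arrays 38 passed, 37 of them among the 47. Array weights gave 79 (44 higher, 35 lower), and eBayes with trend and robust gave 69, of which 40 were higher. The number higher in RAI2 was 14 when probes had to be above background on all 9 arrays and 15 when all probes of a gene were averaged. Other normalizations gave 43 to 56 genes. Without the filter on dim probes 6 lists, against 11, had a median over 0.1 from that of all genes. Of 1350 list medians recomputed, 91, in 33 lists, moved by more than 1 SD between arrays. None of 104 named genes reversed, and 11 of the 68 that did not pass did so under at least 1 setting. The causes were not tested. Signals near background limit the size of the differences of dim genes.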
